A study of Mus musculus with 20 samples.

Results

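The regions described here are chains of touching intervals, which are stretches of the mouse genome where cut sites of one restriction enzyme pair follow each other closely. The deposited table lists intervals between neighbouring SmaI/XmaI sites (recognition sequence with a CpG at its centre). On the autosomes, intervals were sorted by chromosome and start, an interval that starts exactly where the previous one ends was joined to it, and chains of 5 or more intervals were kept. This gave 4608 intervals in 735 chains, out of 50782 intervals in the table and 48681 on autosomes. The rule used coordinates only and no read count. The first and last interval of a chain are called its edges (1470 intervals) and those between them its core (3138 intervals).

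Nuclei came from the hypothalamus of male mice of the inbred C57BL/6 strain, with no treatment or altered allele in the labels, and were sorted by fluorescence on NeuN, a nuclear marker of neurons. The 4 groups were P21 neurons, P21 non-neurons, P0 neurons and P0 non-neurons, with 5 libraries each, where P0 and P21 are postnatal days 0 and 21 (birth and about weaning age). Each sorted sample pooled 2 hypothalami of the same age. Non-neurons are the NeuN-negative nuclei and so hold several cell types, and sorted neurons are mixed too; fewer nuclei with methylation and another mix of nuclei in the sort cannot be told apart. The table holds DNA counts and no expression, so the sorted identity was not checked against marker genes. Total counts ran from 5663740 to 9998110 reads per library.

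In mammalian DNA, methyl groups sit mainly on the cytosine of CpG dinucleotides. Most CpGs in the genome are methylated, while CpG islands, short stretches dense in CpGs and often at gene starts, are usually free of methylation; their borders, called shores, are known for methylation that varies with cell type and age. In the assay used, methylation-specific amplification with sequencing, SmaI first cuts unmethylated sites to blunt ends and XmaI then cuts the remaining methylated sites to sticky ends that take an adaptor, so amplification of an interval needs methylation at its left and its right site. Touching intervals share a site, and a single unmethylated site costs both of its neighbours their reads. Read counts scaled to library size (CPM) therefore follow methylation but are not methylation fractions.

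Chains were short and compact. The median chain spanned 4976 bp and the range was 574 to 144280 bp, so the 4608 intervals covered 4.11 Mb. There were 363 chains of exactly 5 intervals and 28 of 10 or more, and the longest held 124. Chromosome 17 had the largest share of its intervals in such chains (14.9%, 346 intervals) and chromosome 16 the smallest (1.71%, 26 intervals), with 13.3% on chromosome 5 and 13.1% on chromosome 11. At the ends of the chains, the next interval lay more than 3000 bp away in 1356 of 1470 cases and less than 60 bp away in 108; 3000 bp and 60 bp are the longest and shortest intervals of the table. In 9 chains (193 intervals), 3 or more intervals had the same length to the base, as tandemly repeated DNA gives; the treatment of reads that map to several places is not given in the sources, so counts in these chains are uncertain.

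Many intervals of the chains gave few reads. An interval was tested for differences when about 10 reads were present in each of 5 or more libraries, which 1995 of the 4608 chain intervals reached (43.3%), against 55.0% of intervals in chains of 2 to 4 and 54.4% of intervals that touch no other. The remaining 2613 chain intervals were not tested. Of all 4608 chain intervals, 605 (13.1%) had no read in any of the 20 libraries. A count of 0 allows up to 3 reads per library, for counting error only. The median level over all 20 libraries was 0.637 CPM per kb in chains of 5 or more, 1.51 CPM per kb in chains of 2 to 4 and 1.46 CPM per kb in lone intervals, while the mean levels lay closer together at 28.4, 32.7 and 29.2 CPM per kb. In each class the mean lay far above the median. Of the 735 chains, 169 had every interval tested (990 intervals), 377 had some, and 189 had none (1123 intervals), of which 8 chains had no read at all. At the limit of the rule, intervals in chains of exactly 5 had a median of 0.696 CPM with 47.6% tested, and intervals in chains of exactly 4 had a median of 0.667 CPM with 46.6% tested.

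Further inside the chains, fewer intervals had enough reads to test. The share of intervals with enough reads to test was 50.7% at the edge, 43.95% at the second interval from the nearer end, 39.1% at the third and 30.5% from the fourth on. The share with no read in any library was 9.46%, 12.7%, 15.4% and 19.6% at the same positions. Without the 124-interval chain, the values from the fourth interval on were 37.9% tested and 11.7% without reads, so the second measure then rose only as far as the third interval. Intervals were also shorter inside (median 653.5 bp at the edge, 500.5 bp at the second interval and 436 bp at the third), and the part of length in this gradient was not tested. Per kb of length, the median level was 0.979 CPM at the edge, 0.648 at the second, 0.502 at the third and 0.280 from the fourth interval on (0.623 without the longest chain). The mean level per kb, which intervals with many reads dominate, followed no such order, at 26.2 CPM at the edge, 33.5 at the second, 24.6 at the third and 28.0 from the fourth on (35.3 without the longest chain).

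**Figure D1:**
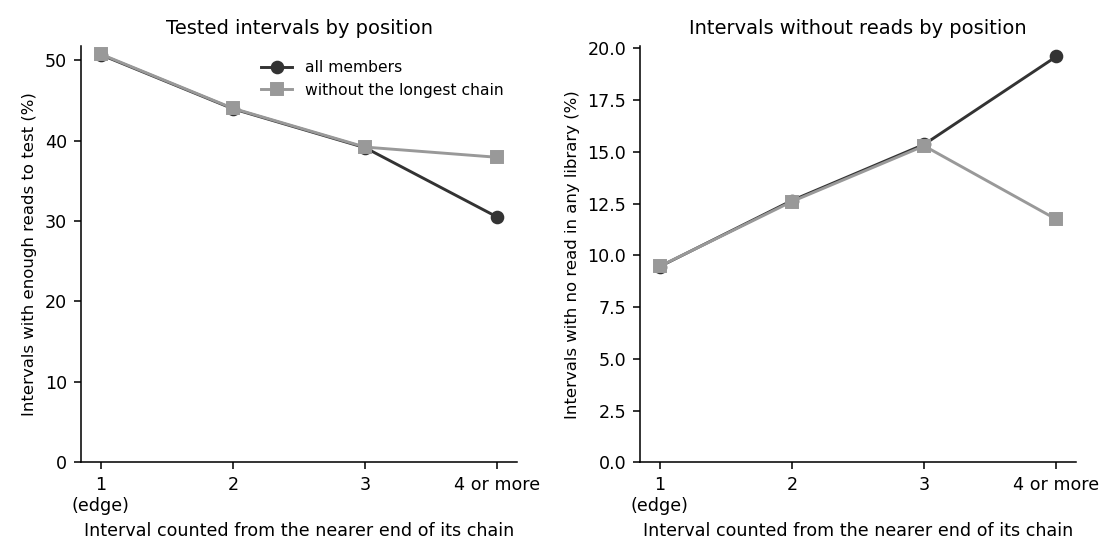
Left, the percentage of chain intervals with enough reads to be tested; right, the percentage with no read in any of the 20 libraries, both by position counted from the nearer end of the chain, for all 735 chains and without the longest one. The tested share falls from 50.7% at the edge to 39.1% at the third interval, and the longest chain decides the last point.

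With age, chains of 5 or more took a smaller share of each library in both sorted fractions. In neurons they held 8.28, 8.225, 8.48, 8.29 and 8.45% of reads in the P21 libraries 1 to 5, against 8.70, 9.23, 9.25, 8.91 and 9.005% in the P0 libraries. In non-neurons they held 8.31, 8.39, 8.75, 8.20 and 8.40% of reads at P21, against 9.05, 9.35, 9.29, 9.11 and 9.01% at P0. No P21 library reached any P0 library of its own fraction. The means were 8.34 ± 0.114% and 9.02 ± 0.230% in P21 and P0 neurons, and 8.41 ± 0.208% and 9.16 ± 0.151% in P21 and P0 non-neurons (SD, n = 5 each); as sums over the chosen regions they get no test. Chains of 2 to 4 also held a smaller share at P21, with 45.5 ± 0.206% in P21 and 46.75 ± 0.118% in P0 neurons, and 45.7 ± 0.172% in P21 and 47.0 ± 0.0810% in P0 non-neurons. Lone intervals moved the other way, with 45.2 ± 0.270% in P21 and 43.3 ± 0.245% in P0 neurons, and 44.9 ± 0.279% in P21 and 43.0 ± 0.0746% in P0 non-neurons.

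The edges and the core of the chains shared the reads differently in the sorted fractions. Core intervals, 3138 of the 4608, held 68.4 ± 0.304% of the chain reads in P21 neurons, against 70.1 ± 0.244% in P21 non-neurons. At P0 they held 68.3 ± 0.412% in neurons and 69.6 ± 0.541% in non-neurons (SD, n = 5 each). All 10 neuron libraries, at 67.9 to 68.9%, lay below all 10 non-neuron libraries, at 69.2 to 70.5%, whereas the ages overlapped in both fractions.

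**Figure D2:**
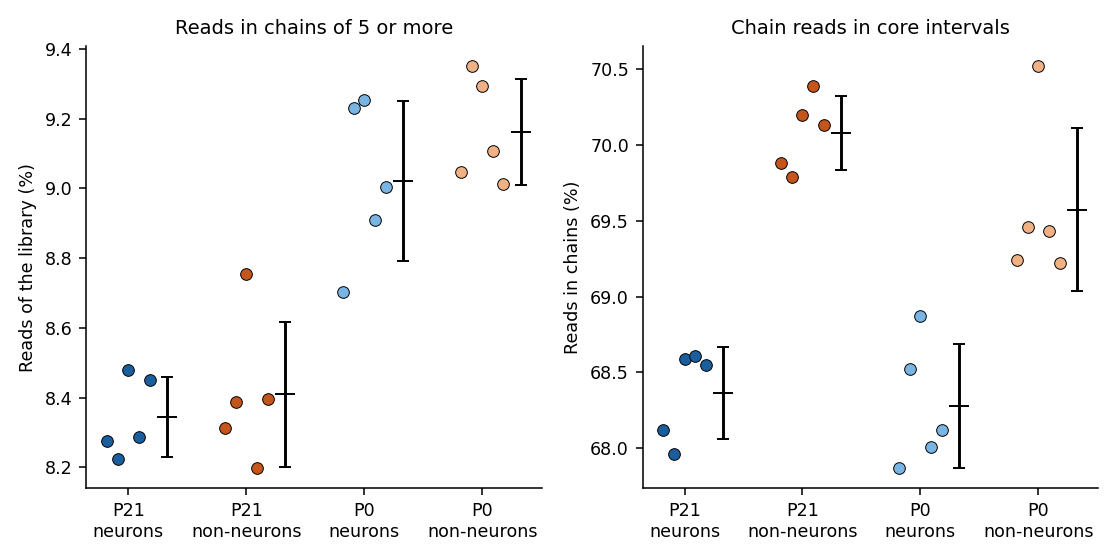
Left, the percentage of each library's reads in chains of 5 or more; right, the percentage of those reads in core intervals. Each point is a library and the bars give the mean and SD of 5; P21 libraries lie below P0 libraries of the same fraction on the left (8.34% against 9.02% in neurons), and neurons lie below non-neurons on the right.

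To ask whether a chain changed as a block, counts were summed over its intervals and fitted together with all other chains and lone intervals of the table (edgeR quasi-likelihood test with Benjamini-Hochberg adjustment over 19517 units). Of the 735 chains, 589 had enough reads. From here on, "called" means an adjusted p under 0.05, and "rose" or "fell" is said of called items. A log2 fold change, or log2 difference, is P21 minus P0 for age and neurons minus non-neurons for cell type.

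In neurons, 413 of the 589 chains differed between P21 and P0: 257 fell and 156 rose. The background was 58.7% of all units called, with 27.7% lower and 31.1% higher, against 43.6% lower and 26.5% higher among the chains. The median log2 fold change was -0.19 in the chains and 0.05 over all units. With libraries scaled by their totals alone, the call split in neurons turned to 218 higher and 183 lower; that scaling moved the median of all units to 0.28 and left the chains' median below it at 0.03. In non-neurons, 296 chains fell and 94 rose, that is 50.3% lower and 16.0% higher, against a background of 56.6% called, 27.6% lower and 28.9% higher. Their median was -0.33, against 0.025 over all units, and with library totals alone 207 fell and 155 rose, with medians of -0.07 and 0.28. In every scaling tried (the default trimmed means, relative log expression, upper quartiles and library totals) the median age difference of the chains lay below that of all units in both fractions. A scaling moves both medians by about the same amount, so their order could hardly change and is no separate support.

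Across 3 classes of size, the share of units that fell was lowest in lone intervals, while chains of 4, of 5 and of 8 or more did not follow one order. In neurons 23.8% of lone intervals, 34.6% of chains of 2 to 4 and 43.6% of chains of 5 or more fell with age. In non-neurons these shares were 22.9%, 36.0% and 50.3%. Larger chains also had more reads: the median log2 CPM was 3.10, 4.47 and 4.90 in the same order, and the part of depth in the size order was not tested. At the limit of the rule, 44.8% of chains of exactly 5 and 44.1% of chains of exactly 4 were lower in P21 neurons, and the same shares in non-neurons were 51.3% and 49.8%. Of the 99 tested chains of 8 or more, 40.4% fell in neurons and 47.5% fell in non-neurons, below chains of exactly 5 in both fractions; these differences were not tested. Among the 169 chains with every interval tested, 103 fell and 29 rose in neurons, and 105 fell and 22 rose in non-neurons; their median level over libraries was 263 CPM. Among the 377 chains with some intervals tested, 139 fell and 122 rose in neurons, and 179 fell and 72 rose in non-neurons, at a median of 14.85 CPM.

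**Figure D3:**
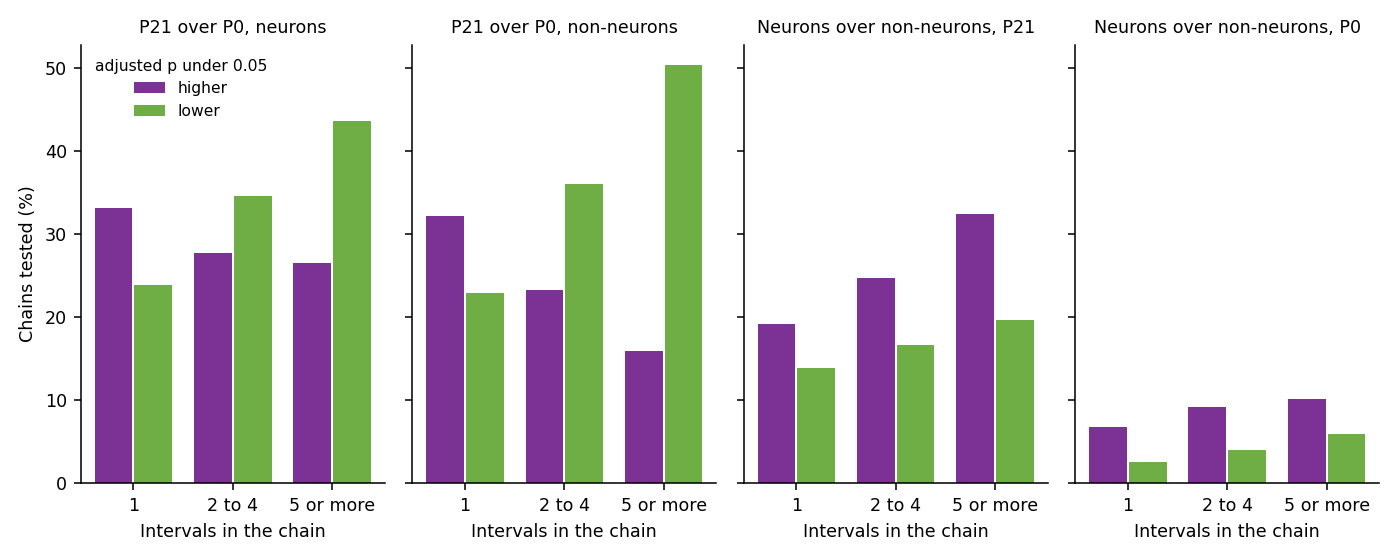
Percentage of tested units called higher or lower (adjusted p under 0.05) among lone intervals, chains of 2 to 4 and chains of 5 or more, for the 4 comparisons. Over these 3 classes the share lower with age is highest in chains of 5 or more, at 43.6% in neurons and 50.3% in non-neurons, though not higher still in chains of 8 or more (40.4% and 47.5%); with library totals alone the split in neurons turns to more higher than lower, and with upper-quartile scaling the splits between cell types turn to more lower than higher.

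The age calls of both fractions overlapped, and the overlap was counted without a test. The age comparisons of the 2 fractions share no library. Of the chains that fell, 215 did so in both fractions, 83.7% of those in neurons and 72.6% of those in non-neurons. Over all units of any size these shares were 72.6% and 72.7%, and over chains of 2 to 4 they were 77.4% and 74.3%. A rise in both was found for 72 chains, 46.2% of those in neurons and 76.6% of those in non-neurons, against 66.1% and 70.9% over all units and 57.4% and 68.4% over chains of 2 to 4. Opposite calls, a rise in neurons with a fall in non-neurons, were made for 29 chains, and the reverse for 3. The 29 were 18.6% of the chains that rose in neurons, against 6.50% over all units and 10.4% over chains of 2 to 4.

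Among the chains above the median level whose groups did not overlap, that with the largest rise in neurons was chr2:116801320-116803140, 6 intervals in 1820 bp (coordinates of the deposited table, mouse build mm9; the genes at these places were not looked up, as no annotation of that build was used). It had 139.5, 116, 133, 157 and 126 CPM in the P21 neuron libraries 1 to 5, against 4.74, 3.06, 4.45, 4.80 and 5.79 CPM in the P0 ones. The P21 libraries lay far above, a 29.3-fold rise (log2 difference 4.87, SE 0.24, adjusted p = 3.55e-14). In non-neurons it averaged 6.74 ± 1.81 CPM at P21 and 1.58 ± 1.37 CPM at P0, a 4.23-fold rise (adjusted p = 2.26e-05). The reads sat at the right end of the chain. The last 3 intervals held nearly all of them, led by the fifth with 107 ± 13.2 CPM in P21 neurons and 2.81 ± 0.854 CPM in P0 neurons, while the first 3 had 4 to 6 reads each over all 20 libraries.

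The chain chr9:20834054-20842143 (5 intervals) had 107, 121, 106, 104 and 102 CPM in P21 neurons, against 4.04, 5.67, 3.92, 3.09 and 5.63 CPM in P0 neurons. It rose 23.9-fold in neurons (log2 difference 4.58, SE 0.16, adjusted p = 1.19e-24) and 5.51-fold in non-neurons, at 13.1 ± 3.55 CPM at P21 and 2.35 ± 0.724 CPM at P0. Here too the rise was at the right end, with the fourth and the fifth intervals tested and 14 to 55 reads in each of the first 3. In chr10:126961842-126969582 (6 intervals), by contrast, the first 5 intervals all rose in neurons, by log2 fold changes of 2.26 to 4.55, and the chain had 90.7, 84.2, 85.2, 86.7 and 95.8 CPM in P21 neurons against 6.67, 6.89, 3.74, 6.17 and 6.39 CPM in P0 neurons (log2 difference 3.88, SE 0.14, adjusted p = 7.58e-25). The chain chr8:74200182-74209819 rose 5.05-fold, to 123 ± 6.04 CPM in P21 neurons against 24.3 ± 2.71 CPM in P0 neurons, mainly through the fifth interval.

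In neurons, the 4 chains named for a fall were at higher levels at P0 than the 4 named for a rise. The choice by largest change each way favours this order, so it is not a result about the chains. The chain chr11:98626917-98631867 (5 intervals) had 35.8, 38.4, 34.0, 26.9 and 30.3 CPM in P21 neurons, against 102, 108, 111, 103 and 99.7 CPM in P0 neurons. Its non-neuron values were 40.5, 34.5, 34.4, 32.1 and 33.4 CPM at P21 and 116, 109, 123, 111 and 101 CPM at P0. The ages did not overlap in either fraction, and all 5 intervals fell in both, by log2 fold changes of -1.22 to -1.77 in neurons and -0.98 to -1.85 in non-neurons. As a block it fell 3.16-fold in neurons (log2 difference -1.66, SE 0.094, adjusted p = 2.40e-18) and 3.21-fold in non-neurons (log2 difference -1.68, SE 0.095, adjusted p = 5.76e-18).

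The other chains named for a fall in neurons fell less in non-neurons, or were not called there. In chr10:79804632-79811138 the level was 32.2 ± 1.11 CPM in P21 neurons against 107 ± 9.92 CPM in P0 neurons (log2 difference -1.74, SE 0.10, adjusted p = 8.43e-18), and 60.9 ± 11.3 CPM in P21 non-neurons against 84.1 ± 7.77 CPM in P0 non-neurons (log2 difference -0.47, SE 0.10, adjusted p = 1.33e-04). In chr17:27837475-27844027 it was 72.1, 61.8, 66.7, 74.7 and 69.1 CPM in P21 neurons, against 189.9, 204, 194, 173 and 183 CPM in P0 neurons. The same chain had 225 ± 14.9 CPM in P21 non-neurons and 239.6 ± 7.03 CPM in P0 non-neurons. It fell 2.74-fold in neurons (log2 difference -1.46, SE 0.076, adjusted p = 1.54e-19) and was not called in non-neurons (log2 fold change -0.09, adjusted p = 0.285). The chain chr4:139130153-139135974 fell 2.51-fold in neurons, to 93.6 ± 10.4 CPM at P21 against 234 ± 10.2 CPM at P0.

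Among the chains named for a rise in non-neurons was chr14:22801847-22816102, 15 intervals with few reads in its middle. It had 194, 159, 156, 146 and 162 CPM in P21 non-neurons, against 54.6, 40.8, 67.3, 62.5 and 54.6 CPM in P0 non-neurons, a 2.92-fold rise (log2 difference 1.54, SE 0.10, adjusted p = 4.10e-16). In neurons it had 167 ± 9.39 CPM at P21 and 36.9 ± 4.08 CPM at P0 (log2 difference 2.18, SE 0.10, adjusted p = 9.48e-21). The 7 intervals from the sixth to the twelfth stayed at 8 to 55 reads each over all 20 libraries, and the 7 tested intervals lay on both sides of that stretch. The thirteenth, for instance, held 69.5 ± 9.37 CPM in P21 non-neurons and 23.7 ± 5.11 CPM in P0 non-neurons. All 7 tested intervals had higher mean levels at P21 than at P0 in both fractions, by log2 fold changes of 1.08 to 3.04 in neurons and 0.11 to 2.12 in non-neurons, where the fifth interval did not pass (adjusted p = 0.77).

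The chain chr8:87225735-87240156 (8 intervals) also rose in non-neurons, with 67.5, 102, 81.6, 76.5 and 73.6 CPM at P21, against 17.3, 11.7, 14.3, 14.3 and 19.1 CPM at P0 (log2 difference 2.39, SE 0.13, adjusted p = 1.99e-18). In neurons it rose less, to 27.8 ± 2.38 CPM at P21 against 13.7 ± 2.45 CPM at P0 (log2 difference 1.03, SE 0.13, adjusted p = 2.26e-08). Beside chr11:98626917-98631867, the chains named for a fall in non-neurons included chr4:125928860-125939678, with 22.7 ± 3.66 CPM at P21 and 80.4 ± 6.55 CPM at P0 (log2 difference -1.82, SE 0.10, adjusted p = 4.82e-18). The chain chr2:156324540-156331629 had 142, 139, 182, 160.3 and 179.6 CPM in P21 non-neurons, against 479.7, 542, 506, 538 and 469.8 CPM in P0 non-neurons, with no overlap (log2 difference -1.66, SE 0.083, adjusted p = 1.01e-19). Its neuron values were 362 ± 25.5 CPM at P21 and 593 ± 49.0 CPM at P0 (log2 difference -0.71, SE 0.080, adjusted p = 7.11e-10). All 5 intervals of chr9:56724794-56731540 fell in non-neurons, and the chain had 31.3 ± 3.37 CPM at P21 and 87.9 ± 7.48 CPM at P0 (log2 difference -1.49, SE 0.093, adjusted p = 1.04e-16).

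Between cell types at P21, 307 of 589 chains differed: 191 were higher in neurons (32.4%) and 116 lower (19.7%), against a background of 35.9% called, 21% higher and 14.8% lower. The median log2 difference was 0.04 in the chains and -0.05 over all units. The split turned to 146 higher and 230 lower with upper-quartile scaling and was 172 to 168 with library totals alone, so the direction of the majority depends on the scaling.

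The chain chr7:26030206-26034641 (6 intervals) was far higher in neurons than in non-neurons at both ages. At P21 it had 98.3, 104, 107, 98.8 and 93.7 CPM in neurons, against 9.29, 10.5, 9.63, 4.49 and 9.20 CPM in non-neurons. At P0 the values were 122, 133, 110.0, 99.0 and 93.0 CPM in neurons and 25.7, 20.6, 23.2, 22.9 and 21.1 CPM in non-neurons. No neuron library came near a non-neuron one, with an 11.6-fold difference at P21 (log2 difference 3.54, SE 0.13, adjusted p = 3.29e-24) and a 4.90-fold difference at P0 (log2 difference 2.29, SE 0.12, adjusted p = 2.90e-18). The 4 tested intervals from the left edge inwards were all higher in neurons at both ages, and the last 2 held 25 and 0 reads.

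In chr9:44303234-44307444 the level was 120.3 ± 3.23 CPM in P21 neurons and 12.7 ± 1.68 CPM in P21 non-neurons (log2 difference 3.24, SE 0.12, adjusted p = 5.98e-25). At P0 it was 115 ± 11.6 CPM in neurons and 27.1 ± 5.24 CPM in non-neurons (log2 difference 2.09, SE 0.11, adjusted p = 1.40e-18). Its 2 leftmost intervals carried the reads and the third and the fourth had 10 and 0. Both chains named first for a rise in neurons were named in this comparison too: chr2:116801320-116803140 was 19.7-fold higher in neurons than in non-neurons at P21 (adjusted p = 5.87e-14) and chr9:20834054-20842143 8.28-fold higher (adjusted p = 1.10e-21).

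Of the chains named as lower in neurons, that with the most intervals lay on chromosome 6. The chain chr6:88140951-88155717 (15 intervals) had 25.0, 17.2, 12.5, 13.9 and 20.9 CPM in P21 neurons, against 51.5 to 71.2 CPM (median 61.2) in P21 non-neurons. It was lower in neurons at both ages, at P21 (log2 difference -1.78, SE 0.14, adjusted p = 5.90e-13) and at P0 (log2 difference -1.08, SE 0.15, adjusted p = 5.47e-07). Of its 15 intervals only the eleventh and the last were tested; the last held 14.3 ± 4.28 CPM in P21 neurons and 53.2 ± 8.94 CPM in P21 non-neurons, and the first 10 had 7 to 131 reads each over 20 libraries. The chain chr17:27837475-27844027, which fell in neurons, was 3.27-fold lower in neurons at P21 (adjusted p = 5.65e-22), and chr8:87225735-87240156, which rose more in non-neurons, was 2.88-fold lower in neurons (adjusted p = 3.70e-14). In chr7:106460291-106470978, a chain of 10 tested intervals, the level was 239 ± 24.5 CPM in P21 neurons and 519.8 ± 40.5 CPM in P21 non-neurons (log2 difference -1.12, SE 0.078, adjusted p = 6.67e-16), and at P0 it was 376 ± 11.8 CPM in neurons and 402 ± 33.5 CPM in non-neurons (adjusted p = 0.549). Its first 2 intervals, with few of its reads, were lower in neurons at both ages, by log2 differences of -3.44 and -2.54 at P21 and -3.34 and -2.49 at P0.

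At P0, in the comparison of the cell types, 95 chains were called, 60 higher in neurons (10.2%) and 35 lower (5.94%), against a background of 10.6% called, 7.56% higher and 3.06% lower. With upper-quartile scaling the split turned to 45 higher and 77 lower, with a 2-fold minimum it was 11 to 15, with library totals alone 54 to 53, and with each library's trend with interval length removed 61 to 62. Of the 60 chains with higher neuron levels at P0, 53 had a call in the same direction at P21 (88.3% of those at P0 and 27.8% of those at P21), and of the 35 lower ones, 18 did (51.4% and 15.5%); the ages share no library. Over all units these shares were 84.1% and 30.2% for higher levels, and 50.6% and 10.45% for lower ones.

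The chain chr11:97301515-97305915 was higher in neurons at P0 in all 5 of its intervals. It had 94.8, 96.2, 84.9, 91.6 and 90.6 CPM in P0 neurons, against 28.8, 27.4, 23.6, 24.4 and 20.9 CPM in P0 non-neurons (log2 difference 1.87, SE 0.10, adjusted p = 7.97e-18). From left to right its log2 differences were 3.00, 3.08, 3.16, 1.48 and 0.44, smallest in the last interval, which had 15.7 ± 1.90 CPM in neurons and 11.6 ± 1.41 CPM in non-neurons. At P21 it had 160.5 ± 8.13 CPM in neurons and 35.5 ± 5.90 CPM in non-neurons (log2 difference 2.17, SE 0.098, adjusted p = 9.51e-22). In chr11:113667215-113676682 (8 intervals) the first 4 intervals were higher in P0 neurons, by log2 differences of 1.51 to 1.95, and the next 2 differed by 0.07 and -0.33; the chain had 255 ± 12.6 CPM in P0 neurons and 86.8 ± 8.88 CPM in P0 non-neurons.

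Beside chr6:88140951-88155717, 3 chains were named as lower in P0 neurons. The chain chr17:8993944-8998669 had 90.2, 107, 91.0, 84.6 and 86.3 CPM in P0 neurons, against 182, 186, 214, 197 and 188 CPM in P0 non-neurons (log2 difference -1.07, SE 0.079, adjusted p = 3.30e-14), nearly all of it in its last interval. The chain chr8:121981052-121990807 had 41.6 ± 8.02 CPM in P0 neurons and 73.5 ± 6.46 CPM in P0 non-neurons (log2 difference -0.82, SE 0.11, adjusted p = 2.22e-07). It showed no call at P21, at 48.8 ± 4.13 CPM in neurons and 48.4 ± 5.76 CPM in non-neurons (log2 difference 0.01, adjusted p = 0.951). The third, chr1:24252685-24258571, had 125 ± 9.64 CPM in P0 neurons and 209.9 ± 19.1 CPM in P0 non-neurons (log2 difference -0.75, SE 0.088, adjusted p = 9.61e-09).

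The change with age differed between the fractions in 180 chains, tested as an interaction (the neuron minus non-neuron difference at P21 minus that at P0). It was positive in 136 (23.1%) and negative in 44 (7.47%), against a background of 15.0% called, 11.5% positive and 3.50% negative; with upper-quartile scaling the split was 124 to 81. The chain chr13:34736572-34745020 moved in opposite directions. It had 84.4, 90.5, 89.2, 80.7 and 86.2 CPM in P21 neurons, against 24.0, 24.7, 28.1, 33.3 and 30.9 CPM in P0 neurons, and 13.6, 16.3, 11.9, 12.8 and 15.1 CPM in P21 non-neurons, against 25.6, 25.3, 19.0, 19.7 and 25.4 CPM in P0 non-neurons. It rose 3.06-fold in neurons (adjusted p = 5.81e-16), fell 1.65-fold in non-neurons (adjusted p = 3.57e-06), and the ages did not overlap in either; the interaction was 2.33 on the log2 scale (SE 0.16, adjusted p = 1.22e-14). All 5 of its tested intervals had a positive interaction, 1.35 to 3.31. The negative interactions named included -1.36 in chr17:27837475-27844027 and -1.36 in chr8:87225735-87240156.

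Interval by interval, 1995 chain intervals were tested in one fit with 26679 intervals of the table. In neurons 1195 differed with age (59.9%, background 57.3%), 517 higher (25.9%, background 31.0%) and 678 lower (34.0%, background 26.3%). In non-neurons 1039 differed (52.1%, background 54.3%), 349 higher (17.5%, background 28.5%) and 690 lower (34.6%, background 25.8%). The totals lay near the background, while the shares higher lay below it and the shares lower above it. With library totals alone the splits turned to 685 higher and 488 lower in neurons, and 578 and 487 in non-neurons. A 2-fold minimum also turned the split in neurons, to 277 higher and 224 lower, but not in non-neurons, where it was 129 and 233. Between cell types, 910 differed at P21 (526 higher in neurons, 384 lower; 45.6%, background 35.8%, of which 20.8% higher and 15.0% lower) and 250 at P0 (173 higher, 77 lower; 12.5%, background 9.78%, of which 6.92% higher and 2.86% lower). With upper-quartile scaling these splits were 423 higher and 696 lower at P21, and 135 and 126 at P0, and with library totals alone 475 and 514 at P21, and 143 and 106 at P0. With the length trend removed the split at P0 was 174 and 131. The interaction was called in 394 (310 positive, 84 negative; 19.75%, background 14.1%, of which 10.9% positive and 3.24% negative), with 262 and 178 under upper-quartile scaling. The median age difference was -0.10 in neurons and -0.16 in non-neurons for chain intervals, against 0.06 and 0.03 over all tested intervals. Because an interval could pass the filter through its high group alone, these counts describe tested intervals and not all 4608.

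Single intervals could be followed in the same way. The interval chr9:20839609-20840797, the fourth of its chain, had 97.4, 109, 94.5, 92.8 and 91.0 CPM in P21 neurons, against 2.60, 2.55, 2.29, 1.89 and 3.03 CPM in P0 neurons (log2 difference 5.28, SE 0.17, adjusted p = 1.50e-26). At the right edge of chr8:35868424-35873747 (10 intervals), the interval chr8:35873055-35873747 had 39.8, 35.4, 39.1, 36.4 and 43.5 CPM in P21 neurons, against 1.90, 1.35, 0, 1.54 and 0 CPM in P0 neurons (log2 difference 5.33, SE 0.32, adjusted p = 7.07e-14). It was lower in neurons than in non-neurons at P0 and higher at P21, with a 4.01-fold rise in non-neurons to 18.2 ± 2.43 CPM at P21 against 4.49 ± 1.92 CPM at P0. In the opposite direction, chr10:80720373-80720997 had 1.52, 0.352, 0.717, 1.54 and 2.26 CPM in P21 neurons, against 19.0, 15.6, 25.1, 23.5 and 25.6 CPM in P0 neurons (log2 difference -4.13, SE 0.24, adjusted p = 2.02e-17). The falls at chr15:98001052-98001467 and chr6:83389844-83390253 were 8.51-fold and 6.61-fold in neurons.

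Some single intervals had few reads in one of the fractions. The interval chr7:86642731-86643606 had 6.75, 3.90, 7.21, 3.77 and 3.79 CPM in P0 neurons, against 0.153, 0.16, 0.408, 0.309 and 0.18 CPM in P0 non-neurons, a 19.1-fold difference (adjusted p = 6.18e-13). At P21 it had 37.4 ± 2.21 CPM in neurons and 1.75 ± 0.411 CPM in non-neurons, so it rose in both. Conversely, chr8:87230622-87231875, the third interval of its chain, had 4.31, 2.02, 3.79, 3.30 and 4.07 CPM in P21 neurons, against 39.3, 67.9, 49.1, 47.5 and 45.6 CPM in P21 non-neurons (log2 difference -3.85, SE 0.18, adjusted p = 5.31e-21). The interval chr8:123073824-123074613 was 10.1-fold lower in P0 neurons, at 1.43 ± 0.827 CPM against 14.6 ± 1.82 CPM in P0 non-neurons.

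Calls at edges and in the core were counted, with no test between them. With age in neurons, 25.6% of 745 tested edge intervals rose and 34.4% fell, against 26.1% and 33.8% of 1250 tested core intervals. In non-neurons, 55.3% of edge and 50.2% of core intervals differed. Between cell types, 44.2% of edge and 46.5% of core intervals differed at P21, and 13.8% and 11.8% at P0.

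Neighbours within a chain changed alike, and the likeness faded over a few intervals. Between touching intervals the Pearson correlation of log2 fold changes was 0.65 for the age difference of neurons and 0.56 for that of non-neurons, and 0.72 for cell type at P21 and 0.63 for cell type at P0 (n = 1349 pairs). With 1 interval between them it was 0.39, 0.33, 0.38 and 0.28 (n = 965 pairs), and with 3 between them 0.16, 0.18, 0.12 and 0.05 (n = 458 pairs). Pairs share their libraries, and touching intervals also share a cut site, whose methylation enters both counts; pairs of one chain are not independent, so no p is given. In chains of 2 to 4, touching intervals correlated at 0.56, 0.48, 0.66 and 0.46 in the same order (n = 5764 pairs).

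**Figure D4:**
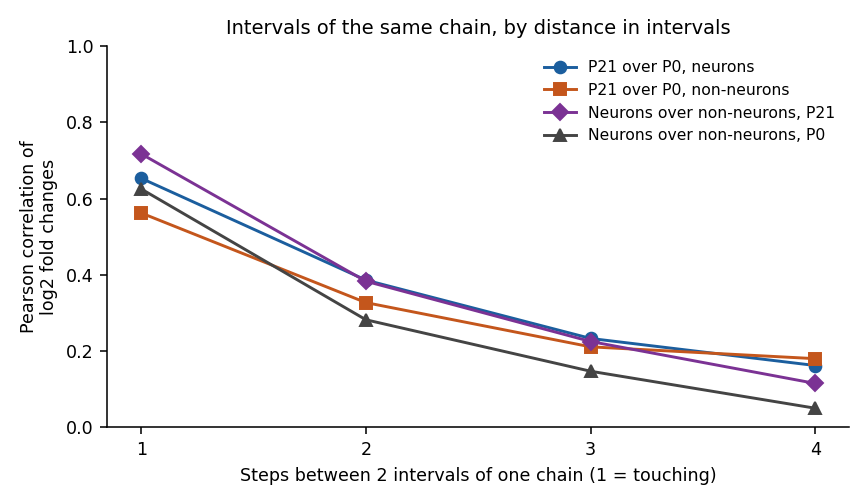
Pearson correlation, across pairs of tested intervals of the same chain, of their log2 fold changes, by the number of steps between them (1 means touching), for the 4 comparisons. Touching pairs lie between 0.56 and 0.72 and pairs 4 steps apart between 0.05 and 0.18.

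Runs of neighbouring intervals called in one direction reached 8. That run was the whole of chr7:51787803-51796844, where all 8 intervals fell in both fractions, by log2 fold changes of -0.36 to -1.55 in neurons and -0.33 to -1.53 in non-neurons. Of the 546 chains with a tested interval, 188 held intervals that fell and none that rose with age in neurons, 151 the reverse, and 120 held both (34.4%, 27.7% and 22.0%). In the 5965 chains of 2 to 4 with a tested interval, the shares were 34.4%, 33.9% and 6.92%. In non-neurons these were 232, 120 and 91 of the chains of 5 or more (42.5%, 22.0% and 16.7%), against 35.2%, 29.9% and 6.51% of chains of 2 to 4. Longer chains hold more tested intervals: among chains with exactly 4 tested, intervals went both ways in 36.2% of 58 chains of 5 or more and 27.5% of 247 chains of 2 to 4 in neurons, and in 15.5% and 22.7% in non-neurons. With exactly 3 tested, the shares were 13.6% and 16.1% in neurons and 10.2% and 15.3% in non-neurons, and no difference between the sizes was tested. Between cell types, 67 chains of 5 or more held intervals called in both directions at P21 (12.3%, against 2.63% of chains of 2 to 4) and 2 at P0 (0.366% against 0.117%). Among chains with exactly 2, 3 and 4 tested, the P21 shares lay close together. They were 2.15, 5.09 and 13.8% in chains of 5 or more, against 2.18, 5.89 and 12.55% in chains of 2 to 4.

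Intervals of a chain often changed by unequal amounts, asked with a test of whether the fold changes of its tested intervals differ from each other (edgeR, per chain with 2 or more tested intervals). For age this was so in 309 of 424 chains in neurons (72.9%, background 46.7% of 4998 chains of any size) and in 274 in non-neurons (64.6%, background 42.3%). For cell type it was so in 212 chains at P21 (background 25.7%) and in 75 at P0 (17.7%, background 6.12%). Longer chains hold more tested intervals, and the part of that number in these shares was not tested.

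One such chain was chr15:76059610-76063742 (5 intervals), which changed in both directions (adjusted p = 1.02e-33 for unequal age change in neurons). Its first interval had 11.8 ± 3.79 CPM in P21 neurons and 0.198 ± 0.19 CPM in P0 neurons, a log2 fold change of 5.79 (adjusted p = 2.12e-09). Its last had 3.06 ± 0.715 CPM in P21 neurons and 17.9 ± 0.795 CPM in P0 neurons, a log2 fold change of -2.55 (adjusted p = 1.37e-15). The first 2 intervals rose in neurons and the last 3 fell in both fractions, while in non-neurons the first 2 had log2 fold changes of 0.01 and -0.32, neither called. The sum over the chain hid this, with 21.5 ± 5.04 CPM in P21 neurons and 31.1 ± 1.92 CPM in P0 neurons.

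**Figure D5:**
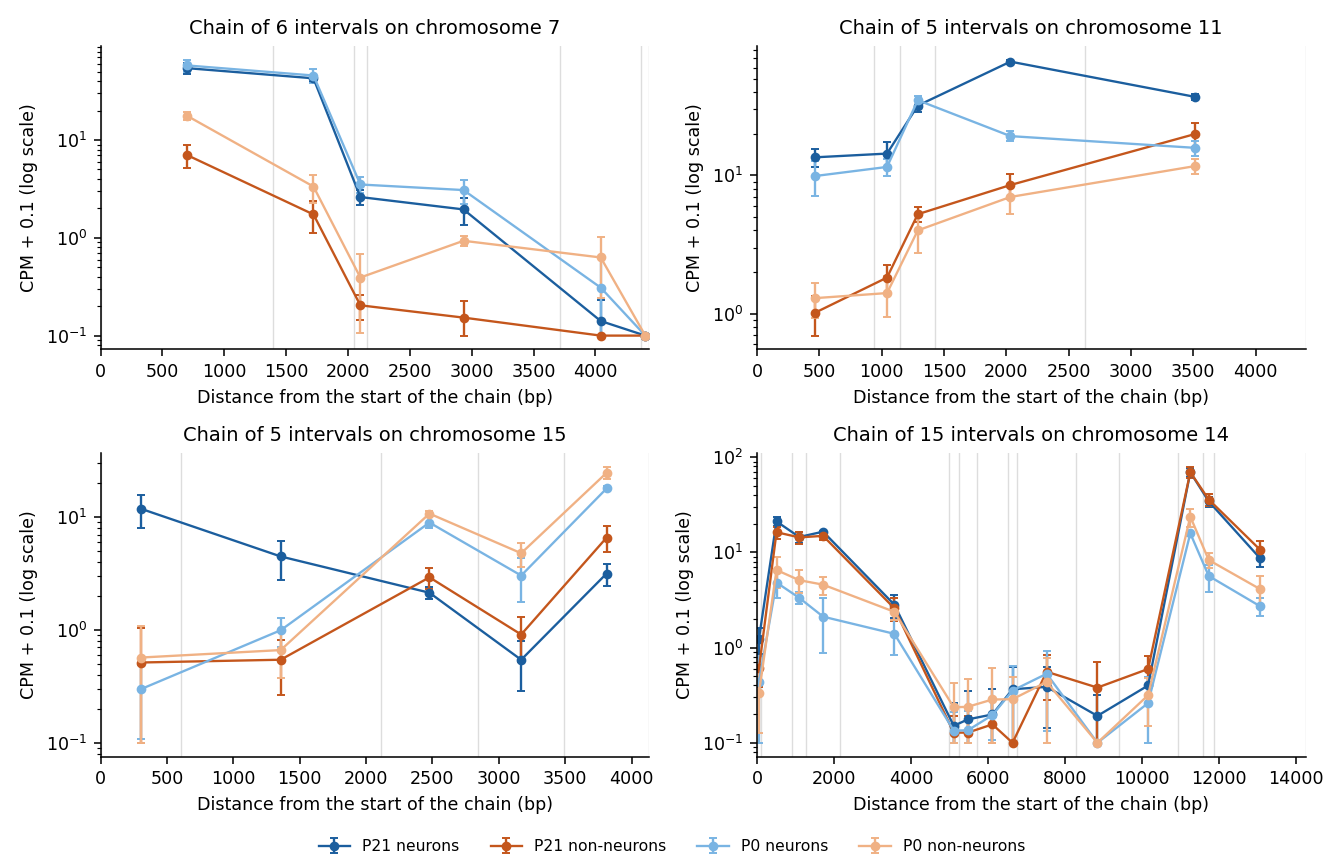
Level along 4 chains in the 4 groups, as CPM plus 0.1 on a log scale against distance from the start of the chain; points are means of 5 libraries at interval centres, bars are SD and grey lines are cut sites. The chain on chromosome 7 is higher in neurons from its left edge inwards, that on chromosome 11 across all 5 intervals, that on chromosome 15 changes sign along its length, and that on chromosome 14 has a middle with 8 to 55 reads per interval.

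A like division was seen in chr1:24252685-24258571. Its first 2 intervals were higher in neurons at P21, at 117 ± 13.1 CPM in neurons and 57.1 ± 8.65 CPM in non-neurons for the first. Its last 2 were lower in neurons, at 20.9 ± 2.52 CPM in neurons and 60.1 ± 5.32 CPM in non-neurons for the fourth (log2 difference -1.52, adjusted p = 3.99e-16). In chr8:87225735-87240156 the third and the fourth intervals were lower in P21 neurons, by log2 differences of -3.85 and -3.40, and the seventh was higher, by 1.30 (adjusted p = 7.45e-31 for unequal differences). The chains named for the same reason at P0, chr9:63863105-63870854 and chr7:30093076-30100775, had adjusted p values of 0.00102 and 1.47e-15.

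The balance of core to edge was compared as the log2 ratio of core to edge counts per library (limma, chains with at least 10 reads on average in each; the edges are 2 intervals and the core all others). With age the ratio changed in 211 of 395 chains in neurons (97 up, 114 down; 53.4%, background 45.2%, of which 23.7% up and 21.6% down) and in 169 in non-neurons (79 up, 90 down; 42.8%, background 41.2%, of which 20.1% up and 21.1% down). Between cell types it differed in 128 at P21 (59 up, 69 down; 32.4%, background 23.0%, of which 12.0% up and 11.1% down) and in 52 at P0 (19 up, 33 down; 13.2%, background 6.89%, of which 3.36% up and 3.52% down).

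The chain chr8:35868424-35873747 shifted its balance of reads to the edge with age. Its log2 core to edge ratio was -3.82 ± 0.25 in P21 neurons and 1.44 ± 1.78 in P0 neurons (difference of log2 ratios -5.25, SE 0.57, adjusted p = 2.84e-07). In non-neurons it was -3.90 ± 0.38 at P21 and -1.10 ± 0.75 at P0 (difference of log2 ratios -2.79, SE 0.57, adjusted p = 4.75e-04). Both edge intervals rose in neurons, by log2 fold changes of 4.52 on the left and 5.33 on the right, while the 8 core intervals, none of them tested, had 11 to 154 reads each over 20 libraries. The opposite shift was seen in chr15:98635204-98638362 in neurons (difference of log2 ratios 2.90, SE 0.58, adjusted p = 3.64e-04) and in chr1:137714972-137719052 in non-neurons (difference of log2 ratios 1.89, SE 0.12, adjusted p = 3.13e-10). For chr15:98635204-98638362 the P0 neuron ratio rested on few reads, at 1.48 CPM in the edge and 1.43 CPM in the core. Its log2 ratio there was -0.49 ± 1.74. In chr15:78753625-78762886 (8 tested intervals), the core was higher in neurons and neither edge was called. The ratio was 3.73 ± 0.30 in neurons, against 1.17 ± 0.28 in non-neurons, at P21 (difference of log2 ratios 2.56, SE 0.17, adjusted p = 2.64e-10). The left edge had 10.3 ± 1.81 CPM in P21 neurons and 11.8 ± 1.53 CPM in P21 non-neurons. At P0 the shifts named were those of chr8:35868424-35873747 (difference of log2 ratios 2.54, SE 0.57, adjusted p = 0.00639), chr12:112662005-112670384 (difference of log2 ratios 2.10, SE 0.53, adjusted p = 0.0136), chr7:30093076-30100775 (difference of log2 ratios -1.77, SE 0.14, adjusted p = 2.25e-08) and chr14:32668032-32677787 (difference of log2 ratios -1.25, SE 0.15, adjusted p = 6.17e-06). The first 2 were no longer called with 3 P0 libraries per group, and the last 3 were no longer called when 2 intervals at each end counted as edge.

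The 5 longest chains were of different kinds. The longest, chr6:114442474-114586754, had 124 intervals, of which 41 were 473 bp long, 60 had no read and 3 were tested. Summed, it had 40.3, 41.6, 44.8, 49.8 and 40.2 CPM in P21 neurons, against 16.6, 17.3, 18.8, 19.9 and 17.9 CPM in P21 non-neurons, with no overlap (log2 difference 1.26, SE 0.10, adjusted p = 2.27e-13). At P0 it had 34.3 ± 3.16 CPM in neurons and 30.3 ± 2.50 CPM in non-neurons (adjusted p = 0.346). A single interval of 472 bp, the 51st, held 3296 of its 4762 reads. The chain chr3:93082032-93096776 (17 intervals) was built of units of 738 to 765 bp after a first interval of 2688 bp. Its units ranged from 0 reads in 4 intervals to 136 ± 26.0 CPM in P21 neurons and 213 ± 26.1 CPM in P0 neurons for the fifth, and its sum fell 1.53-fold in neurons (log2 difference -0.61, SE 0.10, adjusted p = 6.95e-06). Both chains hold repeated lengths, and their counts are uncertain for the reason given above.

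In chr6:58110593-58122147, by contrast, 22 of 23 intervals were tested. It had 423 ± 45.7 CPM in P21 neurons and 517 ± 45.9 CPM in P21 non-neurons (log2 difference -0.29, SE 0.088, adjusted p = 0.00803), with overlapping libraries, and no call in either age comparison (adjusted p = 0.119 in neurons and 0.0855 in non-neurons). The chain chr5:143576731-143584444 (16 intervals) had no interval tested, and none exceeded 41 reads over 20 libraries. Its sum fell with age in both fractions, to 0.558 ± 0.289 CPM in P21 neurons against 2.80 ± 0.574 CPM in P0 neurons (log2 difference -2.31, SE 0.44, adjusted p = 2.31e-05), and to 0.34 ± 0.412 CPM in P21 non-neurons against 2.35 ± 0.775 CPM in P0 non-neurons (log2 difference -2.75, SE 0.50, adjusted p = 1.43e-05). Of the 43 such chains with no interval tested but enough reads in sum, 15 fell and 5 rose in neurons, and 12 fell and none rose in non-neurons. In neurons this was 34.9% lower and 11.6% higher, against 27.7% and 31.1% of all units. In non-neurons the 27.9% lower was near the 27.6% of all units, of which 28.9% were higher.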

How the data were processed

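The 20 libraries, 5 in each of 4 groups, were made by methylation-specific amplification (MSA-seq). In the deposited table each interval has a raw read count per library, judged from the values, whole numbers that sum to unequal totals. Per the labels' protocols, amplified DNA was sheared to 200 to 500 bp for paired-end sequencing. Bowtie 0.12.9, FastQC 0.10.1, cutadapt and the build mm9 appear in the submitters' processing notes; the assignment of reads to intervals is not given in the sources. The age, a letter for the cell type (N, and G read as glia from the title) and the number in a column name gave its library, and no column was left over.

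From these counts, intervals were fitted with edgeR 4.0.16 in R 4.3.3 (filterByExpr with a minimum of 10 reads, trimmed-mean scaling, robust quasi-likelihood, 1 mean per group, all 20 libraries), and so were counts summed by chain. Unequal change within a chain was tested with diffSpliceDGE, and the core to edge ratio (pseudocount 1) with limma 3.58.1. P-values were adjusted by the Benjamini-Hochberg method over all intervals, or all chains of any size, and called under 0.05. CPM use the scaled library sizes of the fit, so interval and chain CPM differ slightly. The tests were tried on simulated counts, drawn independently for each interval. Touching intervals share a cut site, so the simulation does not show how the tests behave on such linked counts. The labels mention no molecular identifiers, so a count's precision covers counting error only. The labels call the libraries biological replicates, and the p-values measure the spread between them (common coefficient of variation 13.8%).

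Chains named are the 5 with most intervals. Per comparison they are also the called ones above the median level, with groups that do not overlap and the largest change each way (4, or 3 for the interaction), the 2 with intervals called both ways and the largest range, and the 2 with the largest core to edge change each way. Single intervals named are 3 each way, or 2 for the interaction, by the same rule. Runs of neighbours (chr7:51787803-51796844) were named after their values were seen. Alternatives (scaling, filters, DESeq2 1.42.0, a replicate block, leaving out each library, other chain definitions, interval length) are in the closing section. The members, rules and tests were chosen with earlier results of these data known. Sex chromosomes were left out by the rule; no gene was assigned, since the annotation at hand is of another build. Same-numbered libraries were not treated as pairs. The labels state no pairs, and correlations were below 0.1 in part of the same-numbered pairs of each comparison. This does not exclude pairing, and a fit with the number as a block is in the closing section.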

Additional observations from a re-analysis of the deposited data

Results flagged for a closer look

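In 236 groups of 5 libraries checked (57 named chains and intervals and the shares of reads), 15 had 1 library apart from the other 4, with a gap over 0.71 of the group's range; chance flags about 1 in 20. In 7 of them the library apart was the highest of its group. These were 1 P0 non-neuron library with 70.5% of its chain reads in core intervals (others 69.2 to 69.5%), and, in CPM, 107 for chr17:8993944-8998669 in P0 neurons (others 84.6 to 91.0), 121 for chr9:20834054-20842143 in P21 neurons (102 to 107), 40.5 for chr11:98626917-98631867 in P21 non-neurons (32.1 to 34.5), 128 for chr4:139130153-139135974 in P21 non-neurons (107 to 113), 414 for chr1:137714972-137719052 in P0 neurons (353 to 368), and 3.37 for chr13:34743143-34743538 in P21 non-neurons (3.17 to 3.21). In the other 8 the library apart was the lowest, at 4.49 CPM for chr7:26030206-26034641 in P21 non-neurons (others 9.20 to 10.5), 111 for chr1:24252685-24258571 in P21 non-neurons (143 to 149), 196 for chr7:106460291-106470978 in P21 neurons (241 to 255), 3.74 for chr10:126961842-126969582 in P0 neurons (6.17 to 6.89), 9.54 for chr17:27649835-27651507 in P21 neurons (18.1 to 21.4) and 543 for chr5:141083640-141090873 in P21 neurons (624 to 647). Single intervals of this kind were chr8:35873055-35873747 at 13.9 CPM in P21 non-neurons (18.5 to 19.8) and chr5:109980032-109982560 at 23.7 CPM in P0 non-neurons (38.2 to 42.3).

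The change with age differed between neurons and non-neurons, by the interaction test (edgeR, adjusted p under 0.05), in 33 of the 42 named chains and 10 of the 15 named intervals. Over the whole table, 15.0% of chains and lone intervals and 14.1% of tested intervals were called. Some items were named for that difference, and most others for a large difference in 1 fraction or at 1 age. Such a choice favours a call, so these counts are not a result about the chains. All values are log2 differences, neurons minus non-neurons in the change with age. In chains it was 2.79 for chr2:116801320-116803140, 2.39 for chr10:126961842-126969582, 2.33 for chr13:34736572-34745020, 2.14 for chr8:35868424-35873747 and 2.11 for chr9:20834054-20842143. Values between 1 and 2 were 1.74 for chr8:74200182-74209819, 1.4 for chr15:76059610-76063742, 1.38 for chr11:108778825-108782389, 1.35 for chr15:78753625-78762886, 1.33 for chr15:98635204-98638362 and 1.33 for chr11:114528199-114537721, with 1.24 for chr7:26030206-26034641, 1.15 for chr1:137714972-137719052, 1.15 for chr9:44303234-44307444, 1.14 for chr9:56724794-56731540, 1.08 for chr6:114442474-114586754 and 1.04 for chr8:73012456-73015110 below these. Smaller positive values were 0.98 for chr1:24252685-24258571, 0.95 for chr2:156324540-156331629, 0.89 for chr9:63863105-63870854, 0.87 for chr12:112662005-112670384, 0.83 for chr8:121981052-121990807, 0.63 for chr14:22801847-22816102, 0.57 for chr4:125928860-125939678 and 0.52 for chr17:8993944-8998669. It was negative in 8 chains, at -1.36 for chr8:87225735-87240156, -1.36 for chr17:27837475-27844027, -1.27 for chr10:79804632-79811138, -1.03 for chr7:106460291-106470978, -0.7 for chr6:88140951-88155717, -0.67 for chr15:79629580-79635217, -0.58 for chr4:139130153-139135974 and -0.34 for chr11:113667215-113676682. For single intervals it was 3.32 for chr8:35873055-35873747, 2.89 for chr13:34743143-34743538, 2.71 for chr2:116802370-116803045, 2.04 for chr9:20839609-20840797, 1.86 for chr8:123073824-123074613 and 0.87 for chr7:26031602-26032252. Negative values were -1.95 for chr6:83389844-83390253, -1.8 for chr15:98001052-98001467, -1.78 for chr10:80720373-80720997 and -1.19 for chr14:52623657-52625093.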

How the results depend on the processing

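Of 82 named values, 2290 of 2296 recomputed ones kept their direction and their side of the threshold and none reversed; leaving out 1 library at a time changed none of 1640. The 6 that were no longer called were core to edge differences. With 3 P0 libraries per group these were chr8:35868424-35873747 (1.9, adjusted p = 0.143) and chr12:112662005-112670384 (0.87, adjusted p = 0.411) at P0. With 2 edge intervals at each end they were, at P0, chr12:112662005-112670384 (0.78, 0.0853), chr7:30093076-30100775 (-0.14, 0.887) and chr14:32668032-32677787 (-0.21, 0.406), and with age in non-neurons chr8:73012456-73015110 (-1.02, 0.0506).

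Of the 30 counts and shares, 915 recomputed values stayed within 1.5 times (or 1 SD for shares of reads) and 57 were counted as moved. These 57 include the differences in median log2 CPM, which are in other units and were not compared. Shares for other chain sizes sum over another set of regions. A reversal was looked for only in the shares of reads, which kept their direction. Some splits between higher and lower calls did turn, as given with the counts above. The cause was not tested beyond what a setting itself removes. The following are percentages of tested items called. A 2-fold minimum lowered all of them. Higher and lower intervals were then 2.81 and 2.41% for cell type at P0, 14.5 and 5.26% for cell type at P21, 13.9 and 11.2% for age in neurons, 6.47 and 11.7% for age in non-neurons, and 9.72 and 2.21% for the interaction. Chains were 1.87 and 2.55%, 15.8 and 6.11%, 13.1 and 13.8%, 5.09 and 14.9%, and 13.9 and 3.06% in the same order. Without a filter on low counts (4003 intervals tested), intervals called were 3.92 and 2.07% at P0, 14.6 and 9.64% at P21, 14.8% higher with age in neurons, 9.07% higher with age in non-neurons, and 8.07 and 2.0% for the interaction; chains with unequal change were 9.19% at P0 and 30.5% at P21, and chains with a negative interaction 4.95%. Upper-quartile scaling gave 6.32% of intervals and 13.1% of chains lower in neurons at P0, 34.9 and 39.0% at P21, and 8.92 and 13.8% with a negative interaction. Library totals alone gave 29.0% of intervals and 26.3% of chains higher with age in non-neurons, 9.0% of chains lower at P0 and 11.4% with a negative interaction. Removing each library's trend with interval length gave 6.57% of intervals and 10.6% of chains lower at P0, and 7.62 and 12.3% with a negative interaction; for chains this was chosen after seeing the data. So was the fit with 3 P0 libraries per group, taken because P0 libraries 4 and 5 stood apart in an earlier analysis of these data. It gave 5.02% of intervals and 6.48% of chains higher at P0, 4.65% of chains with a negative interaction and 6.05% with a core to edge difference at P0. In chains of 8 or more, 10.1% were lower at P0 and 12.1% had a negative interaction.

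The share of reads in chains, P21 minus P0, was -0.676 points in neurons and -0.753 in non-neurons. It was -1.02 and -1.27 for chains of 4 or more, and -0.195 and -0.136 for chains of 8 or more. As the median log2 CPM of chain intervals, the difference was -0.31 and -0.62. Without 1 library at a time it ran from -0.756 to -0.618 in neurons and from -0.839 to -0.700 in non-neurons, and chains lower with age from 39.7 to 43.9% in neurons and from 47.5 to 50.6% in non-neurons.

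Between cell types, same-numbered libraries correlated at 0.045 to 0.21 at P0 and -0.007 to 0.32 at P21 in their deviations from group means. Libraries of other numbers correlated at -0.23 to 0.215 and -0.22 to 0.16. Between ages, same-numbered libraries correlated at -0.067 to 0.105 in neurons and -0.083 to 0.12 in non-neurons. Best with their own number correlated 2, 2, 1 and 0 libraries (cell type at P0 and P21, age in neurons and non-neurons). The labels do not say that a number marks one sort. With the replicate number as a block, 104, 333, 421, 406 and 206 chains were called (cell type at P0 and P21, age in neurons and non-neurons, interaction), and 276, 972, 1232, 1080 and 441 intervals, all within 1.5 times. DESeq2 called 97, 317, 416, 399 and 196 chains. The 2613 chain intervals that were not tested had too few reads, and the counts say nothing of their differences. Low depth and low methylation were not told apart in them.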

Other observations

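Chain intervals were also set beside other tested intervals of like level, by quartile of the mean level over all tested intervals, as a description. In the lowest quartile, 34.7% of 464 chain intervals differed between neurons and non-neurons at P21, against 22.0% of 6206 other intervals, and in the highest quartile 52.1% of 534 against 47.0% of 6136. For age in non-neurons, the median log2 fold change of chain intervals lay below that of the others in each of the 4 quartiles, at -0.25, -0.02, -0.05 and -0.29 in the chains, against 0.10, 0.27, 0.20 and -0.20 in the others. In neurons the medians were 0.04, 0.14, 0.01 and -0.30 in the chains, against 0.14, 0.28, 0.23 and -0.20. Intervals of one chain share cut sites and are not independent.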
